A study of Bos taurus with 2 samples.

Results

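Caspases, the apoptosome gene APAF1 and the inhibitors of apoptosis were examined in 1 pool of CDKN1C-siRNA-injected bovine embryos (the siRNA pool) and 1 pool of sham-injected embryos (the sham pool). The 8 genes were taken by symbol: CASP8, CASP9, APAF1, CASP6, XIAP, BIRC2, BIRC3 and BIRC6. Of these, 6 had a row of their own among 21209 gene symbols. BIRC2 shared its only row with a second symbol and is given apart, and XIAP was not analysed here. Both pools came from in vitro fertilized embryos. Zygotes of the siRNA pool received siRNA against the cell-cycle inhibitor CDKN1C in the cytoplasm. Sham zygotes were punctured by the needle without delivery of siRNA, so the sham pool lacks a control siRNA. The number of embryos in each sequenced pool is not given in the sources used here.

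Caspases are cysteine proteases that lie inactive in the cell until a death signal brings them together. CASP8 is activated at death receptors through the adaptor FADD, and CASP9 on the apoptosome, a wheel built by APAF1 once cytochrome c leaves the mitochondria. Both then activate executioner caspases, CASP6 among them, which cut proteins such as nuclear lamins. The inhibitors of apoptosis share the BIR domain. XIAP binds and blocks caspases directly, BIRC2 and BIRC3 are ubiquitin ligases at tumour necrosis factor receptors, and BIRC6 is a giant ubiquitin-conjugating enzyme. Some cells of normal mammalian blastocysts die by apoptosis.

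Expression was given as FPKM, fragments scaled by transcript length and library. RNA was amplified before sequencing, and how evenly genes were amplified was not tested, so these FPKM values compare levels between genes only roughly. No read counts came with these values, the depth is unknown, and with 1 library per pool no difference has an error or a p-value. A difference below is log2 of siRNA pool over sham pool after adding 1 FPKM to each, which understates the change of genes with low values. A gene was called when this difference reached 2-fold. The median difference was -0.17 over the 7984 genes that averaged 1 FPKM or more. CDKN1C was at 14.6 FPKM in the siRNA pool, against 49.5 FPKM in the sham pool. All 9 trophectoderm markers and all 5 inner cell mass markers found were present in both pools, and their summed levels were 7686 and 104 FPKM in the siRNA pool, against 17588 and 248 FPKM in the sham pool. The keratin genes KRT8 and KRT18 made up most of the trophectoderm sum, at 1610 and 5389 FPKM in the siRNA pool, against 5760 and 11245 FPKM in the sham pool. Of the 9 trophectoderm markers 4 were higher, among them the interferon tau genes IFNT2 and IFNT3 at log2 differences of 2.08 and 1.82, and 5 were lower. Their median of -0.28 was 0.11 with equal total FPKM in both pools. Fibroblast markers summed to 7.53 FPKM in the siRNA pool, against 1.39 FPKM in the sham pool, with COL1A1 at 0 in both. LUM, a matrix proteoglycan gene, carried most of that sum at 4.77 FPKM in the siRNA pool, against 0.138 FPKM in the sham pool, and it stands in the study's own list of genes chosen on these pools. COL1A2 was also higher, at 1.86 FPKM in the siRNA pool, against 1.04 FPKM in the sham pool. So were DCN at 0.653 against 0.0559 FPKM and COL3A1 at 0.190 against 0.00526 FPKM. THY1 was lower, at 0.0532 FPKM in the siRNA pool, against 0.111 FPKM in the sham pool, as was PDGFRB at 0 against 0.0319 FPKM. Cumulus and granulosa markers summed to 18.1 FPKM in the siRNA pool, against 24.7 FPKM in the sham pool. Of the 4 of them that averaged 1 FPKM or more, 2 were higher and 2 lower, from 2.17 for GATM to -1.97 for HSD3B1. Hypoblast markers summed to 17.8 FPKM in the siRNA pool, against 19.3 FPKM in the sham pool, and leukocyte markers to 0.0528 against 0.928 FPKM. The part of these shifts in the results was not tested, and fewer cells of a type cannot be told apart from less RNA per cell.

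The executioner caspase CASP6 was at nearly the same FPKM in both pools. CASP6, which cleaves lamin A, had by far the highest FPKM of the members, at 31.8 FPKM in the siRNA pool, against 31.5 FPKM in the sham pool. Its log2 difference was 0.011, or 0.18 above the median of all genes, and it was 0.40 with equal total FPKM. Its level was above that of 93.0% of symbols in the siRNA pool and of 92.0% in the sham pool. CASP6 made up 80.7% of the summed FPKM of the 6 members in the siRNA pool, against 90.7% in the sham pool. Among the 500 genes closest to CASP6 by mean FPKM, the median difference was -0.35 and the central 90% ran from -1.70 to 1.10, so CASP6 lay well inside their spread.

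The initiator arm was barely detected in either pool. CASP9 was at 0.437 FPKM in the siRNA pool, against 0.424 FPKM in the sham pool. APAF1, the scaffold on which CASP9 is activated, was at 0.118 FPKM in the siRNA pool, against 0.151 FPKM in the sham pool. The log2 differences of 0.013 and -0.042 were close to 0. CASP8, the initiator at death receptors, was at 0.154 FPKM in the siRNA pool, against 0.00366 FPKM in the sham pool. The ratio of these 2 values is 42.2, but both lie where detection was unstable. Of the 1867 genes at 0.05 to 0.2 FPKM in the siRNA pool, 393 were as low as CASP8 or lower in the sham pool, which is 21.0%. Conversely, 33.2% of the 2217 genes at that level in the sham pool were listed at 0 in the siRNA pool. With 1 FPKM added the difference of CASP8 was 0.20, and with 0.1 FPKM added it was 1.30. CFLAR, a catalytically inactive relative that restrains CASP8, was at 0.150 FPKM in the siRNA pool, against 0.0280 FPKM in the sham pool. The other caspases described here were also near 0. CASP1, an inflammatory caspase, was listed at 0 in the siRNA pool and was at 0.113 FPKM in the sham pool, while CASP2 was at 0.0652 FPKM in the siRNA pool and listed at 0 in the sham pool. CASP4 was at 0.102 FPKM in the siRNA pool, against 0.0438 FPKM in the sham pool.

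Of the inhibitors of apoptosis, BIRC3, BIRC5 and BIRC6 were higher in the siRNA pool, while the joint BIRC2 row, under 1 FPKM, was lower. BIRC3, a ubiquitin ligase that is also a target of NF-kB, was at 1.88 FPKM in the siRNA pool, against 0.288 FPKM in the sham pool, a ratio of 6.53. Its log2 difference was 1.16, and 238 of 7984 genes were as high or higher. BIRC6 was at 5.0005 FPKM in the siRNA pool, against 2.36 FPKM in the sham pool, a ratio of 2.12 and a log2 difference of 0.84, with 610 genes as high or higher. BIRC5 (survivin), an inhibitor of apoptosis that also acts in cell division, was at 41.3 FPKM in the siRNA pool, against 32.7 FPKM in the sham pool, and its difference was 0.33. NAIP, whose product senses bacterial proteins, was at 0.0832 FPKM in the siRNA pool, against 0.0158 FPKM in the sham pool, and BIRC7 was listed at 0 in both. BIRC3 also stands in the study's own list of genes chosen on these pools, which is no separate support for its direction, and it reached a mean of 1.08 FPKM only through the pool in which it was high. Among the 500 genes nearest to BIRC3 in mean FPKM, the central 90% of differences ran from -1.09 to 0.78 and 3 were as high or higher. Around BIRC6 that range was -1.38 to 1.10, and 56 of 500 genes were as high or higher. BIRC6 lay inside the spread of genes at its level, while the place of BIRC3 is a description only, given how it reached the minimum.

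**Figure D1:**
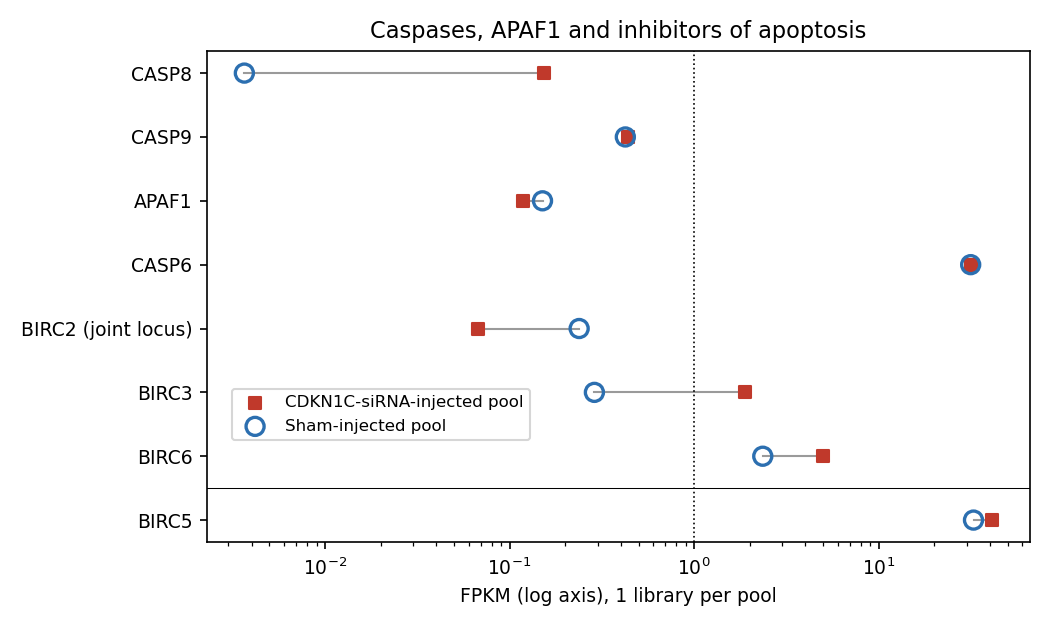
FPKM (horizontal, log axis) of the members found and, under the solid line, of BIRC5, in the CDKN1C-siRNA-injected pool (red squares) and the sham-injected pool (open blue circles), 1 library each; the dotted line marks 1 FPKM. The symbols coincide for CASP6, and stand apart for CASP8 and the joint BIRC2 locus, both below 1 FPKM, and for BIRC3 at 1.88 and 0.288 FPKM.

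The row shared by BIRC2 and LOC100849156 went the other way from BIRC3. It was at 0.0676 FPKM in the siRNA pool, against 0.238 FPKM in the sham pool, a log2 difference of -0.21. The neighbouring BIRC2 and BIRC3 encode near relatives, so how reads were divided between them is uncertain. The RefSeq table of a later cattle assembly lists BIRC2 as a synonym of BIRC3 and also as a gene of its own. Summed over both rows, the level was still higher in the siRNA pool, since the 1.59 FPKM by which BIRC3 was higher there exceeds the whole sham value of the joint row.

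By the rule of size, BIRC3 was called higher among the 3 members that averaged 1 FPKM or more (CASP6, BIRC3 and BIRC6) and none was called lower. Of all genes at that level 4.92% were called higher and 15.7% lower. Since BIRC3 reached the minimum only through the siRNA pool, nothing is read from this count. CASP8, CASP9 and APAF1 fell below the minimum and were not part of this count. The difference of BIRC6 passed 2-fold in 3 of the settings tried: 1.05 with 0.1 FPKM added, 1.004 with the median of all genes set to 0 and 1.14 with equal total FPKM. The call of BIRC3 was lost with 5 FPKM added, at 0.38.

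**Figure D2:**
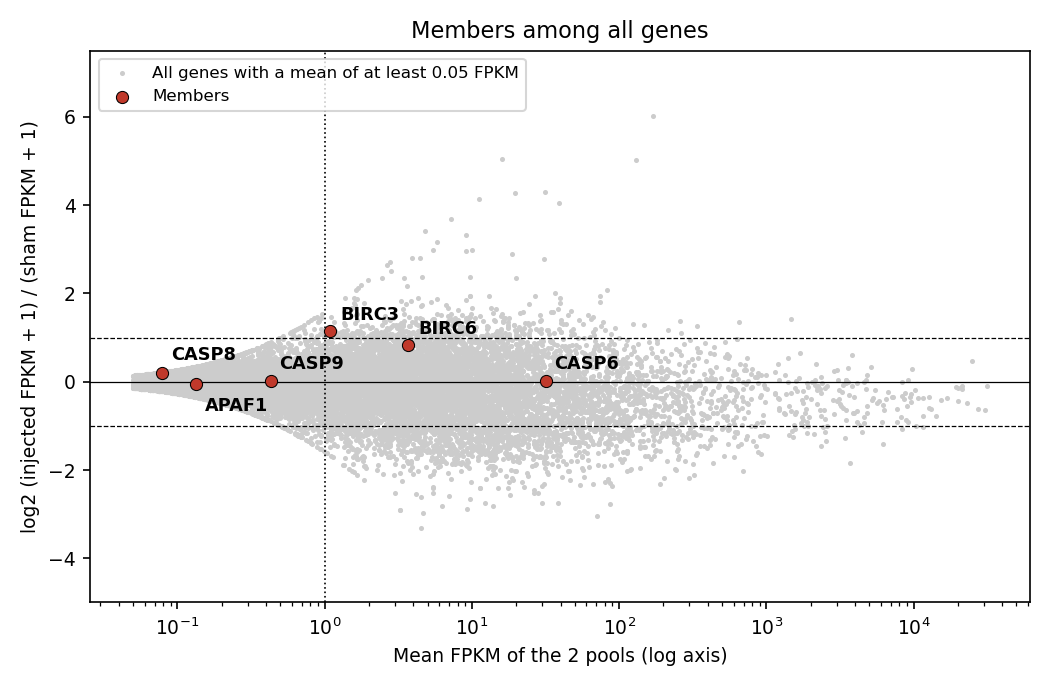
Log2 difference between the siRNA and sham pools (vertical) against mean FPKM (horizontal, log axis) for genes averaging 0.05 FPKM or more (grey) and for the 6 members found (red). Dashed lines mark 2-fold and the dotted line 1 FPKM; BIRC3 at 1.16 lies above the upper dashed line, BIRC6 at 0.84 below it, and CASP6 at 0.011 on the line of no difference.

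**Figure D3:**
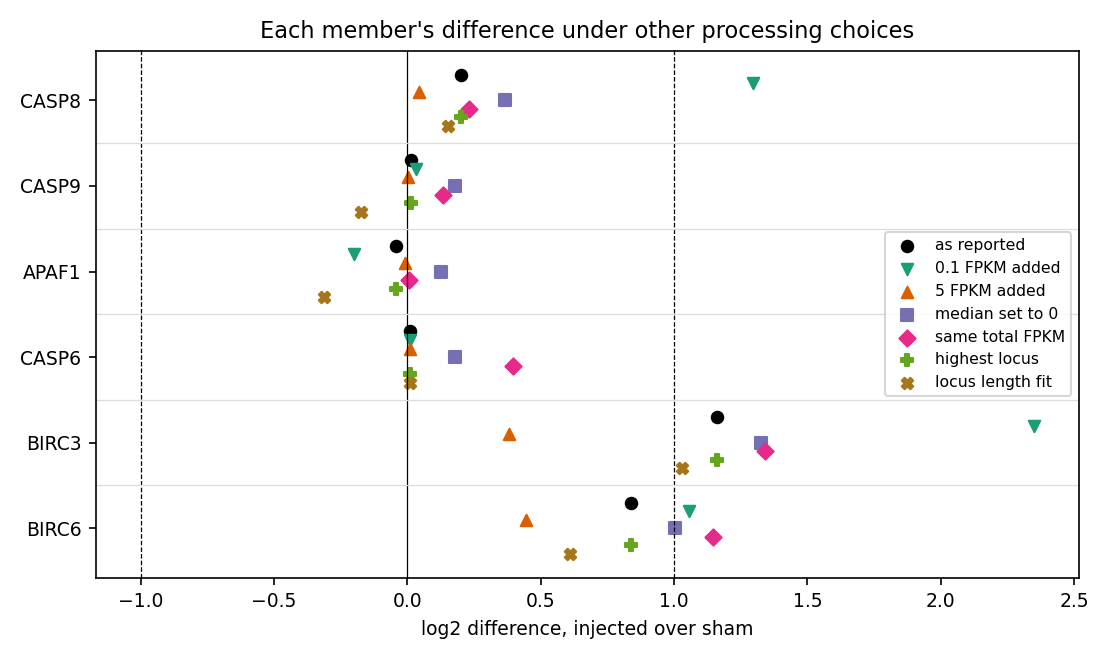
Log2 difference of each member between the siRNA and sham pools (horizontal) under the processing as reported (black) and 6 other choices (coloured symbols), with dashed lines at 2-fold. BIRC3 runs from 0.38 to 2.35 and BIRC6 from 0.44 to 1.14, all right of 0, while the values of APAF1 and CASP9 fall on both sides of 0.

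Ratios within a pool do not depend on how the pools were scaled to each other. The summed FPKM of BIRC3 and BIRC6 was 0.212 of that of CASP6, CASP8, CASP9 and APAF1 in the siRNA pool, against 0.0823 in the sham pool, a 2.57-fold higher ratio. The caspase side of this ratio was nearly the same in deposited FPKM, at 32.5 FPKM in the siRNA pool, against 32.1 FPKM in the sham pool. CASP6 made up nearly all of it, at 31.8 and 31.5 FPKM. The inhibitor side was 6.88 against 2.64 FPKM. BIRC5 is not a member and was left out of it, though its FPKM was 8.26 times that of BIRC6 in the siRNA pool, against 13.9 times in the sham pool. The ratio therefore describes BIRC3 and BIRC6 over CASP6, not all inhibitors over all caspases. BIRC6 alone was 0.157 of CASP6 in the siRNA pool, against 0.0747 in the sham pool. The order of the members by level was CASP6, BIRC6, BIRC3, CASP9, CASP8 and APAF1 in the siRNA pool, and CASP6, BIRC6, CASP9, BIRC3, APAF1 and CASP8 in the sham pool. The first pair in the order was shared by both pools. Members under 1 FPKM cannot be ranked among each other with any firmness.

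The members are scattered over the genome except for the pair on chromosome 15. In the authors' build, bosTau7, BIRC3 lies at chr15:5391794-5422552 and the joint BIRC2 locus at chr15:5362575-5375179, 16.6 kb away. CASP6 lies at chr6:17042338-17063192, CASP8 at chr2:93300139-93323806 and APAF1 at chr5:67251719-67333885. CASP9 has the span chr16:49225690-49263827 in common with CELA2A, an elastase gene listed at 0 in both pools, so this span covers more than CASP9. BIRC6 spans 209 kb at chr11:15694058-15903113, the longest locus of the members. Locus length moved with the differences of all genes. Genes over 200 kb had a median difference of 0.044 over 252 genes, and those under 5 kb -0.53 over 1344 genes. After a loess fit on locus length BIRC6 was at 0.61, BIRC3 at 1.03 and CASP6 at 0.010. The part of locus length in the difference of BIRC6 was not tested further.

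The loci flanking the inhibitors did not reach 2-fold. BIRC6 is flanked by YIPF4, of a Golgi membrane protein family, at 1.87 FPKM in the siRNA pool, against 1.55 FPKM in the sham pool, and by TTC27 at 3.17 against 4.27 FPKM. The closest locus above BIRC3 was LOC100852202, at 7.76 FPKM in the siRNA pool, against 6.57 FPKM in the sham pool. Beside CASP6 lie PLA2G12A, a secreted phospholipase gene, at 1.81 FPKM in the siRNA pool, against 0.757 FPKM in the sham pool, and CCDC109B, a regulator of mitochondrial calcium uptake, at 0.906 against 1.94 FPKM. The nearest loci averaging 1 FPKM or more on each side of the 6 members, 12 in all, ranged in log2 difference from -0.78 for PLEKHM2 to 0.68 for PLA2G12A, and none reached 2-fold. They also include NDUFB3 (-0.034) and STRADB (0.018) around CASP8, EFHD2 (-0.045) by CASP9 and IKBIP (-0.11) next to APAF1. Some of them lie far off, ACTR6 (0.58) at 1460 kb from APAF1 and MMP12 (0.31) at 682 kb from BIRC3.

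Upstream of the caspases, the death receptor arm went both ways. TNFRSF10A, a receptor for the death ligand TRAIL, was at 2.39 FPKM in the siRNA pool, against 1.04 FPKM in the sham pool, and the kinase gene RIPK1 was at 3.71 against 2.35 FPKM. PEA15, whose product binds FADD, was at 19.8 FPKM in the siRNA pool, against 15.0 FPKM in the sham pool. FADD itself, the adaptor that recruits CASP8, was at 39.0 FPKM in the siRNA pool, against 73.3 FPKM in the sham pool. DEDD2, of the death effector domain proteins, was at 1.79 FPKM in the siRNA pool, against 6.86 FPKM in the sham pool, and DEDD at 4.57 against 4.76 FPKM. FADD therefore had a high FPKM in pools where CASP8 was near 0. Of 10 genes of this list that averaged 1 FPKM or more, 7 were higher and 3 lower, with a median of 0.12. Of them 1 was called lower and none higher, where 15.7% of all genes were called lower and 4.92% higher.

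Proteins released from mitochondria, and antagonists of the inhibitors, were split. DIABLO and HTRA2, which displace caspases from XIAP and its relatives, were at 17.1 and 17.5 FPKM in the siRNA pool, against 28.2 and 46.7 FPKM in the sham pool. Their log2 differences were -0.69 for DIABLO and -1.37 for HTRA2. Cytochrome c, CYCS, the trigger of the apoptosome, was at 533 FPKM in the siRNA pool, against 345 FPKM in the sham pool, while the nuclease gene ENDOG was at 2.88 against 19.7 FPKM. AIFM1 differed by 0.16 and the septin gene SEPT4 by -0.70. In both pools CYCS was far above APAF1 and CASP9, the proteins it joins. Of the 6 genes 2 were called lower and none higher, where 15.7% of all genes were called lower and 4.92% higher. Their median was -0.69. With equal total FPKM 1 was called higher and 1 lower, with a median of -0.32, where 12.0% of all genes were called higher and 7.32% lower.

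Among modulators of the apoptosome none was called in the deposited scaling. PTMA, prothymosin alpha, which hinders apoptosome formation, was at 500.4 FPKM in the siRNA pool, against 270 FPKM in the sham pool, and the chaperone HSP90AA1 at 439 against 274 FPKM. HSPA1A was at 8.47 FPKM in the siRNA pool, against 5.93 FPKM in the sham pool. On the other side stood AVEN, a binding partner of APAF1, at 3.94 FPKM in the siRNA pool, against 8.01 FPKM in the sham pool, with CSE1L and HSPA8 at differences of -0.23 and -0.23. Of the 8 genes 5 were higher and 3 lower, with a median of 0.21. With the median of all genes set to 0, 1 was called higher, where 7.72% of all genes were. With equal total FPKM 7 were higher, of which 2 were then called, where 12.0% of all genes were called higher.

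Genes of NF-kB signalling, in which BIRC2 and BIRC3 act as ubiquitin ligases, were mostly lower in the siRNA pool where they averaged 1 FPKM or more, as were 4655 of all 7984 genes. RNF31, the catalytic subunit of the linear ubiquitin ligase complex, was at 2.73 FPKM in the siRNA pool, against 6.97 FPKM in the sham pool. TRAF2, which brings BIRC2 and BIRC3 to the receptor, was at 2.18 FPKM in the siRNA pool, against 5.46 FPKM in the sham pool, and TAB1, a partner of the kinase MAP3K7, at 4.98 against 11.7 FPKM. MAP3K7 and the kinase gene CHUK had differences of 0.38 and 0.094, and RELB one of -0.33. Of 12 genes 10 were lower, also with the median of all genes set to 0 and with equal total FPKM. In the deposited scaling 3 were called lower, where 15.7% of all genes were, and under either other scaling none was. The median was -0.66, and it was -0.33 over the 21 genes above 0 when no minimum was set. TRAF3, a partner of BIRC2 and BIRC3 that averaged less than 1 FPKM, was at 1.21 FPKM in the siRNA pool, against 0.445 FPKM in the sham pool, a difference of 0.61, and was chosen after its values were seen. Of the other listed genes under 1 FPKM, REL, NFKB1 and CYLD were higher, at 0.40, 0.17 and 0.18. NFKB2, IKBKG, TAB2, TNFAIP3 and TRAF1 were lower, from -0.51 for NFKB2 to -0.020 for TRAF1, and MAP3K14 was listed at 0 in both pools. These too were named after their values were seen. BIRC3 differed in direction from 10 of the 12 genes, a description only, since it reached the minimum only through the siRNA pool.

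Substrates of caspases went both ways. LMNA, lamin A, the substrate of CASP6, was at 66.2 FPKM in the siRNA pool, against 100.1 FPKM in the sham pool. ROCK1, a kinase whose cleavage drives membrane blebbing, was at 5.83 FPKM in the siRNA pool, against 2.55 FPKM in the sham pool, and DFFA, the inhibitor of the apoptotic nuclease, at 7.49 against 5.01 FPKM. PARP1 differed by 0.38, the actin regulator GSN by -0.83 and SPTAN1 by -0.69. None of the 11 genes was called, 6 were higher and 5 lower, and the median was 0.25, or -0.018 after the fit on locus length. ROCK1 was called higher with the median of all genes set to 0, at 1.11, and 1 gene was called higher with equal total FPKM. In these settings 7.72% and 12.0% of all genes were called higher. The BCL2 family, which opens or guards the mitochondrial membrane upstream of APAF1, had 4 of the 7 genes averaging 1 FPKM or more called lower. Of all genes 15.7% were called lower. The median of the family was -1.25. This median was under 2-fold in some settings, at -0.88 with equal total FPKM, -0.69 with 5 FPKM added, -0.61 with a minimum mean of 5 FPKM and -0.36 with no minimum. With equal total FPKM 3 of the 7 were called lower, where 7.32% of all genes were. Among these 7 the lowest differences were those of the pro-apoptotic BOK at -2.02, BAX at -1.72 and BCL2L11 at -1.38, and the highest those of MCL1 at 0.34, BBC3 at -0.25 and BID at -0.61. BCL2 itself, named after its values were seen, averaged under 1 FPKM at 1.34 FPKM in the siRNA pool, against 0.459 FPKM in the sham pool, a difference of 0.68. The other family genes under 1 FPKM went both ways. BMF and BCL2L2 were higher, at 0.30 and 0.14, and BAK1, BCL2L10 and BCL2L1 lower, at -0.67, -0.36 and -0.34. The remaining 4 were listed at 0 in both pools. These too were named after their values were seen.

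**Figure D4:**
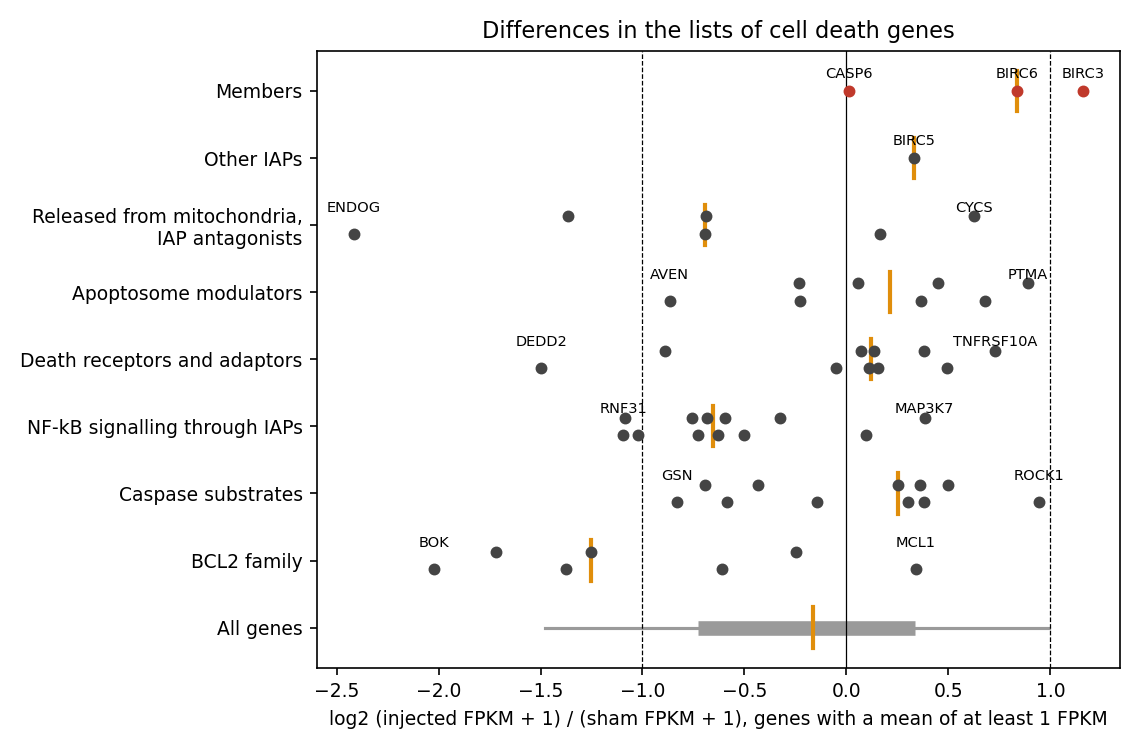
Log2 difference between the siRNA and sham pools (horizontal) for members (red) and listed genes (black) averaging 1 FPKM or more, with list medians (orange) and dashed lines at 2-fold; the row for all genes gives the median, the middle 50% (thick bar) and the middle 90% (thin bar). BIRC3 and BIRC6 lie on the right, while most BCL2 family and NF-kB genes lie left of 0.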

How the data were processed

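RNA of each embryo pool was amplified before sequencing. The authors mapped reads to bosTau7 with TopHat and estimated abundance with Cufflinks 2.0.2, and the deposited FPKM values were upper-quartile normalized and corrected for sequence bias. The gene annotation is not given in the sources used here. Each pool had 22220 loci, of which 615 without a symbol were left out, and FPKM of loci with the same symbol were summed. Symbols were matched exactly.

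Differences were log2 of siRNA over sham FPKM after adding 1 FPKM, described over genes averaging 1 FPKM or more, and called at 2-fold. No test between pools was run, since there was 1 library per group. The calculation was tested on simulated data, with changes planted only in genes at 5 FPKM or more in the sham pool. Of the members only CASP6 was that high, so this check says nothing about calls at lower levels. Genes were named by a rule: all members, the 3 highest and 3 lowest of each list, and the nearest locus on each side. Genes under the minimum mean, CFLAR and the other caspases and inhibitors among them, were named besides as relatives, and single marker genes after their values were seen. Some listed genes are not reported here. Members and lists were chosen with earlier results of these data known. Other settings tried were 0.1 or 5 FPKM added, a minimum mean of 5 FPKM or none, a median of 0 over all genes, equal total FPKM, the highest locus per symbol, a loess fit on locus length (span 0.3), and calls at 1.5-fold or 4-fold. Calculations ran in Python 3.11.15 (NumPy 2.4.6, pandas 2.3.3), with matplotlib 3.10.9 for plots and statsmodels 0.14.6 for the loess fit.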

Additional observations from a re-analysis of the deposited data

How the results depend on the processing

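The number of members called higher, 1 of 3, was 2 with 0.1 FPKM added, with the median of all genes set to 0, with equal total FPKM and at 1.5-fold, and 0 with 5 FPKM added, with a minimum mean of 5 FPKM, at 4-fold and without BIRC3. The last setting was chosen after seeing the data. The count of members called lower was 0 in every setting run. The median of BIRC3 and BIRC6, 0.9998 and just under 2-fold, was 1.70 with 0.1 FPKM added, 1.17 with the median set to 0 and 1.24 with equal total FPKM, and it was 0.82 after the fit on locus length and 0.41 with 5 FPKM added. It was 0.84 with BIRC3 left out, and also with the joint BIRC2 row counted and no minimum set. Both of these settings were chosen after seeing the data. BIRC3 reached the minimum only through the siRNA pool, so this median is a description only. Differences near 0 changed sign. APAF1 was at 0.12 with the median set to 0 and 0.0053 with equal total FPKM, and CASP9 at -0.17 after the fit on locus length. With a minimum mean of 5 FPKM the medians of the death receptor list and the caspase substrates were -0.26 and -0.44, and that of the substrates was -0.018 after the fit on locus length. Setting equal totals moved the median of all genes from -0.17 to 0.17, and calls over all genes from 4.92% higher and 15.7% lower to 12.0% and 7.32%. With the median set to 0 they were 7.72% and 11.0%. Of 134 values under alternatives, 108 were taken as the same. For a difference or median this means that it kept its direction and its side of 2-fold, and for a count that it stayed within 1.5-fold. Each member found had 1 locus, so taking the highest locus per symbol could not move its value. Filters on low values left no value for single members under the minimum. No paired analysis was possible because each group has 1 library. Depth is unknown, and values under 1 FPKM, those of CASP8, CASP9 and APAF1 among them, cannot be ordered with any firmness.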

Other observations

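BIRC5 also belongs to the chromosomal passenger complex, which steers chromosome alignment and cytokinesis, and its partners did not follow it. This list and the next were chosen after the members' values were seen. INCENP, the scaffold of the complex, was at 8.81 FPKM in the siRNA pool, against 26.5 FPKM in the sham pool. The kinase gene AURKB was at 11.8 FPKM in the siRNA pool, against 19.9 FPKM in the sham pool, and CDCA8 (borealin) at 18.1 against 21.7 FPKM. All 3 were lower, with a median log2 difference of -0.71, while BIRC5 was at 0.33. With equal total FPKM 2 of the 3 were lower.

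BIRC6 also acts on autophagy, as a ubiquitin ligase for LC3 proteins together with the activating enzyme UBA6. UBA6 was at 0.338 FPKM in the siRNA pool, against 0.128 FPKM in the sham pool. ATG3 and ATG12, of the machinery that joins LC3 to lipid, were at 29.0 and 45.9 FPKM in the siRNA pool, against 12.2 and 21.1 FPKM in the sham pool. ATG7, of the same machinery, went the other way, at 0.789 FPKM in the siRNA pool, against 2.48 FPKM in the sham pool. ATG5 was nearly level, at 6.57 against 6.41 FPKM. GABARAP, a relative of LC3, was at 37.1 FPKM in the siRNA pool, against 90.3 FPKM in the sham pool, and MAP1LC3B at 4.71 against 5.19 FPKM. GABARAPL1 was lower, at a log2 difference of -0.63, and GABARAPL2 higher, at 0.53. Of 11 autophagy genes that averaged 1 FPKM or more, 6 were higher and 5 lower. Of them 2 were called higher and 1 lower, where 4.92% of all genes were called higher and 15.7% lower. Their median was 0.031.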
